A study of Homo sapiens with 30 samples.

Results

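The core spliceosome proteins build the small nuclear ribonucleoproteins (snRNPs) that recognise splice sites and form the catalytic centre. A list of 40 gene symbols defined the set: the Sm and LSm ring proteins, the U1 and U2 proteins, U2AF, the SF3 complexes, the proteins of the U4/U6.U5 tri-snRNP, and PRPF19. No measured value entered the rule, but the members were chosen with earlier results of these data known. Of the 40, 37 had a row among the 16009 genes of the deposited table, which holds log2 CPM, read counts scaled to library size, at transcription start regions. SF3A2, SF3A3 and SF3B4 are not analysed here.

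All libraries came from MEL624, a human melanoma cell line. Control cells were wild type and had received a random sgRNA, and knockout (KO) cells lacked PCIF1, per the labels. For each genotype there were 3 input libraries and 3 immunoprecipitation (IP) libraries made with an m6A antibody (number 4 of the series), so that 4 groups of 3 were compared. The design text calls them biological replicates and leaves unsaid if the KO samples are separate clones. KO and clone therefore cannot be told apart, and p-values measure only the spread between these samples. The other 18 of the 30 libraries, which compared antibodies, are not analysed here.

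An intron is removed by snRNPs that assemble in turn on each pre-mRNA. U1 pairs with the 5′ splice site, U2AF and U2 mark the 3′ end of the intron and the branch point, and the tri-snRNP brings U5 and the paired U4 and U6, whose rearrangement opens the catalytic centre. Sm proteins form the ring around U1, U2, U4 and U5 snRNA, and LSm proteins form the ring on U6. The assay, m6Am-Exo-Seq, keeps capped 5′ ends by digesting uncapped RNA and then pulls down methylated ones. PCIF1 methylates the first transcribed base next to the cap when that base is an adenosine that already carries a ribose methyl group, which gives m6Am, and antibodies to m6A also bind m6Am. The annotated first base of each member is therefore part of the description.

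The first 3 sets of starts below belong to members whose enrichment differed between genotypes, and the last set is shown for its pyrimidine run. Each window holds 15 bases before and 15 bases from the annotated start of the Ensembl canonical transcript (GENCODE 44, hg38), 5′ to 3′ on the transcribed strand, with the first transcribed base in capitals. The following begin with A in that annotation, and all of them were more enriched in control than in KO cells. The A of SNRPD3 is a G both by the 5′ end of the gene record and by RefSeq. SNRNP70 and SNRNP200 begin with G by the gene record and with A by RefSeq.

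SNRNP70 (chr19:49085436-49085465, plus strand): cccaccccctgctccAgtcgctatcggagg
LSM4 (chr19:18323062-18323091, minus strand): gcgacgaccgccgggAgcgtgtgcagcggc
SNRNP200 (chr2:96305532-96305561, minus strand): ttcttttccttccccAgtgcgtctttcctg
PRPF19 (chr11:60906571-60906600, minus strand): attctgggaaagggcAatttccgttaggtg
SNRPD3 (chr22:24555984-24556013, plus strand): ggtgttaggcccgccAttcgcttgactcac
PRPF8 (chr17:1684853-1684882, minus strand): gaactcgggttgcgcActtcccggcgctgg

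The A starts of SF3B1 and U2AF2 (the latter with G by the gene record and A by RefSeq) were more enriched in KO cells.

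SF3B1 (chr2:197435014-197435043, minus strand): gttcttgggagcgccAgttccgtctgtgtg
U2AF2 (chr19:55655020-55655049, plus strand): gccagcggcggaagtAgccgaagcggctgg

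Differences of either direction were also found at starts annotated with another base. SNRNP40 and SNRPB were more enriched in control cells, and SF3B2 in KO cells. The 5′ end of the gene record is an A for SNRPB.

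SNRNP40 (chr1:31296774-31296803, minus strand): cctgagagcggcagcGcggtcagtggcggc
SNRPB (chr20:2470775-2470804, minus strand): attttacgtggtgctGcatttccggtagcg
SF3B2 (chr11:66052349-66052378, plus strand): gcttccgggttggtcGcgcgccttcctgcg

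The last set holds the 4 members whose annotated start is a C followed by at least 4 pyrimidines, a run like the one that opens terminal oligopyrimidine mRNAs (C, then 4 bases each C or T). It was read on the transcribed strand only, and 5.65% of the 12047 protein-coding genes in the table hold it.

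SNRPD2 (chr19:45691939-45691968, minus strand): aagaggaagtcccgcCtctctctcctcagg
LSM2 (chr6:31806952-31806981, minus strand): tttcccggcttcctcCtcccctctactcta
LSM8 (chr7:118184149-118184178, plus strand): gggttctggcgcgccCtttcagttctgctt
SNRPA (chr19:40751188-40751217, plus strand): aatctctcgagagttCtctccgcacgcggg

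The libraries held 3232562 to 4094070 reads over the listed genes in control inputs, 4035815 to 4625190 in control IPs, 2836120 to 3544669 in KO inputs and 1753164 to 2177874 in KO IPs, the shallowest group. Reads of the 37 members made up 0.468% ± 0.0231 of the total in control inputs, 0.740% ± 0.0212 in control IPs, 0.435% ± 0.0193 in KO inputs and 0.545% ± 0.0138 in KO IPs (SD, n = 3 each). At the targeted gene, PCIF1, CPM was 57.8, 52.5 and 49.4 in control inputs and 70.4, 78.0 and 77.1 in KO inputs, with 30.1, 23.7 and 26.0 in control IPs and 35.4, 41.0 and 28.7 in KO IPs. Reads at the start do not test an edit in the coding sequence, so these values do not check the KO. Of 8 melanocyte markers, 2 (MITF and RAB27A) had a row, with a summed level of 13.0 to 22.7 CPM in control inputs, 14.8 to 17.2 in KO inputs, 27.4 to 31.1 in control IPs and 17.3 to 25.9 in KO IPs. None of the 5 keratinocyte, 5 fibroblast or 5 leukocyte markers had a row, and they are not analysed here.

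Control enrichment, the log2 CPM of control IPs minus control inputs, asks which 5′ ends the antibody retained. Of the 37 members, 19 were enriched and 9 were depleted in the IP at an adjusted p under 0.05 (limma, Benjamini-Hochberg over all genes), and 9 did not pass. Over all 16009 genes, 27.7% were enriched and 28.2% depleted, and over protein-coding genes 31.3% and 28.4%. The median log2 enrichment was 0.33 over the members, −0.01 over all genes and 0.03 over protein-coding genes. IP and input libraries did not overlap for 31 of the 37 members, and for 66.5% of all genes and 70.1% of protein-coding genes. These signs are relative to the deposited scaling. When each library was centred on 77 ribosomal protein mRNAs instead, the median of all genes moved by 1.19 in this contrast, 10178 genes (63.6%) were enriched against 933 (5.83%) depleted, and 32 members were enriched against 2 depleted.

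The Sm ring, which is assembled on the snRNAs in the cytoplasm before they return to the nucleus, had 6 of 7 members enriched and 1 depleted, with a median of 1.33. SNRPB read 536, 452 and 494 CPM in control inputs and 1537, 1606 and 1662 in control IPs, a 3.25-fold rise (log2 1.70 ± 0.11 SE, adjusted p = 1.28e-10). SNRPD2 read 337, 275 and 274 CPM in inputs and 848, 984 and 1019 in IPs (log2 1.69 ± 0.11, adjusted p = 6.21e-11). Every IP library lay above every input library for both. SNRPG rose by a log2 of 1.60 ± 0.11, SNRPE by 1.33 ± 0.10 and SNRPF by 1.01 ± 0.09. SNRPD3 gained 0.33 ± 0.14 (adjusted p = 0.0456), a call that was lost without any 1 of the 6 control libraries or KO input 2. It was also lost without the mean-variance trend of the fit. The depleted member was SNRPD1, at 179, 187 and 158 CPM in inputs against 118, 136 and 122 in IPs (log2 −0.48 ± 0.09, adjusted p = 0.000152), and its sign turned under ribosomal protein centring (0.71).

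The LSm ring, which holds the 3′ end of U6, was split, with 3 members enriched, 3 depleted and a median of −0.01. That split did not hold under ribosomal protein centring, where all 7 were enriched (median 1.17), beside 63.6% of all genes. LSM5 read 30.4, 26.0 and 27.8 CPM in inputs and 76.9, 92.7 and 95.8 in IPs (log2 1.65 ± 0.13, adjusted p = 1.29e-09). LSM7 read 86.1, 89.7 and 79.8 CPM against 232, 240 and 222 (log2 1.44 ± 0.11, adjusted p = 1.14e-09). Both stood apart from the depleted LSM4, LSM6 and LSM2, at −0.55 ± 0.11, −0.50 ± 0.15 and −0.41 ± 0.16, all of which became positive under ribosomal protein centring (0.64, 0.68 and 0.78). LSM6 lost its call without control input 1, and LSM2 lost it without control input 1, control IP 2 or control IP 3. LSM8 did not pass (−0.01 ± 0.16, and 1.17 under ribosomal protein centring). LSM3 passed at 2.34 ± 0.82 (adjusted p = 0.021) on 2, 5 and 1 reads in inputs and 11, 14 and 14 in IPs, and lost the call without any 1 of 4 control libraries (inputs 1 and 3, IPs 2 and 3).

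Among the U1 proteins, SNRPA rose from 56.5, 46.8 and 49.4 CPM to 121, 118 and 116 (log2 1.22 ± 0.13, adjusted p = 9.91e-08). SNRNP70 (U1-70K), which like SNRPA binds a stem-loop of U1 snRNA, rose from 384, 347 and 339 to 598, 565 and 563 CPM (log2 0.69 ± 0.08, adjusted p = 5.77e-07). SNRPC, which helps to stabilise pairing with the 5′ splice site, measured 0.20 ± 0.16 and did not pass. Of the U2 group, SNRPA1 rose by 0.84 ± 0.09, while its partner SNRPB2 was depleted, from 35.8, 40.4 and 37.1 CPM to 17.1, 19.8 and 20.4 (log2 −0.99 ± 0.16, adjusted p = 3e-05; 0.20 under ribosomal protein centring). U2AF2, which binds the polypyrimidine tract, rose by 0.38 ± 0.09. U2AF1, the partner that reads the AG at the end of the intron, had 0 to 8 reads per library. Its reads are uncertain as well, because GENCODE marks an artifactual copy of the gene on chromosome 21 of hg38 that has a row of its own, and no fold is given for it.

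The SF3 complexes, which clamp U2 onto the branch point, held the 2 most depleted members and 1 of the more enriched ones. SF3B1, the large scaffold at the branch site, read 17.8, 17.9 and 11.8 CPM in inputs and 44.3, 61.2 and 59.2 in IPs (log2 1.81 ± 0.17, adjusted p = 2.31e-08). SF3B3, the scaffold beside it, read 112, 84.6 and 80.6 CPM in inputs and 15.0, 12.7 and 14.3 in IPs, which is 6.56-fold lower (log2 −2.71 ± 0.19, adjusted p = 3.49e-10). SF3B2 fell with it, from 207, 205 and 189 CPM to 57.4, 47.8 and 48.6 (log2 −1.97 ± 0.12, adjusted p = 5.55e-11). These directions were the same under ribosomal protein centring (2.99, −1.53 and −0.79). The small subunits SF3B5 and SF3B6 rose by 0.97 ± 0.11 and 0.31 ± 0.09, and SF3A1 did not pass (−0.20 ± 0.14; 0.99 under ribosomal protein centring).

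Of the 9 tri-snRNP proteins, 2 were enriched, 2 depleted and 5 did not pass. Under ribosomal protein centring 8 were enriched and none depleted, beside 63.6% and 5.83% of all genes. DDX23, a helicase that acts when the 5′ splice site is handed from U1 to U6, rose from 12.7, 9.47 and 9.42 CPM to 36.9, 39.4 and 50.8 (log2 2.01 ± 0.17, adjusted p = 5.14e-09). PRPF31, which holds U4 and U6 together, rose from 20.0, 17.5 and 26.9 to 98.6, 81.7 and 68.6 CPM (log2 1.96 ± 0.17, adjusted p = 4.51e-09). PRPF4, another U4/U6 protein, fell from 89.6, 71.1 and 72.5 to 24.1, 23.4 and 23.7 CPM (log2 −1.70 ± 0.23), a call that was lost under ribosomal protein centring (−0.52). SNRNP200, the helicase that unwinds U4 from U6, fell by 0.34 ± 0.12 on the log2 scale (adjusted p = 0.0216). That call was lost without control input 1 (−0.27) or control IP 3 (−0.25) and the sign turned under ribosomal protein centring (0.85). Values for PRPF8, the scaffold of the catalytic centre (−0.33 ± 0.14), the GTPase EFTUD2 (0.33 ± 0.16), the WD-repeat protein SNRNP40 (0.18 ± 0.09), PRPF6, which bridges U5 and U4/U6 (−0.22 ± 0.15), and PRPF3 (0.23 ± 0.40) did not pass. Those of PRPF8 and PRPF6 became positive under ribosomal protein centring (0.86 and 0.96). PRPF19, the ubiquitin ligase of the complex that joins at activation, rose from 254, 244 and 239 to 559, 464 and 475 CPM (log2 1.02 ± 0.11, adjusted p = 1.54e-07).

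KO enrichment, the same subtraction in cells without PCIF1, asks which 5′ ends the antibody retained there. Of the 37 members, 17 were enriched and 14 depleted, against 28.4% and 31.0% of all genes and 27.6% and 35.9% of protein-coding genes. The member median was 0.16, that of all genes −0.07 and that of protein-coding genes −0.16. Libraries did not overlap for 31 members, and for 61.3% of all genes and 64.5% of protein-coding genes. Under ribosomal protein centring, which moved the median of all genes by 0.62, 6 members were depleted in place of 14, and 7330 genes (45.8%) were enriched against 2356 (14.7%) depleted.

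Sm proteins had 5 enriched and 2 depleted members in KO cells. SNRPD2 read 295, 312 and 252 CPM in KO inputs and 919, 909 and 1018 in KO IPs (log2 1.73 ± 0.11, adjusted p = 4.12e-11), and SNRPG read 138, 129 and 120 against 477, 349 and 441 (log2 1.70 ± 0.11). SNRPB (1.05 ± 0.11), SNRPE (0.86 ± 0.10) and SNRPF (0.48 ± 0.09) were also enriched. SNRPD1 fell by 0.59 ± 0.09 on the log2 scale and SNRPD3 by 0.58 ± 0.14, both at 0.03 under ribosomal protein centring. In the LSm ring, LSM5 (1.41 ± 0.13) and LSM7 (0.98 ± 0.11) were enriched, and LSM4 fell furthest, from 140, 121 and 112 CPM to 36.4, 30.3 and 30.4 (log2 −1.94 ± 0.11, adjusted p = 1.47e-11). LSM2 (−0.83 ± 0.16) and LSM8 (−0.70 ± 0.16) were depleted too, but both calls were lost under ribosomal protein centring (−0.22 and −0.09). LSM3 passed at 2.23 ± 0.82 on 4, 0 and 2 input reads and lost the call without KO input 2 (1.02) or KO IP 1 (2.03).

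The most enriched member in KO cells was SF3B1, at 20.2, 20.4 and 19.9 CPM in inputs and 102, 115 and 144 in IPs, 5.91-fold higher (log2 2.56 ± 0.17, adjusted p = 1.43e-10). The next highest outside the rings were PRPF31 (2.08 ± 0.17), DDX23 (1.82 ± 0.17), EFTUD2 (1.28 ± 0.16) and U2AF2 (0.95 ± 0.09). SF3B3 (−2.14 ± 0.19), PRPF4 (−1.93 ± 0.23), SNRNP200 (−1.38 ± 0.12), SF3B2 (−1.20 ± 0.12) and PRPF8 (−1.08 ± 0.14) were the most depleted outside the rings among those that passed, and all were below 0 under ribosomal protein centring as well. SNRNP70 changed side, from 391, 410 and 392 CPM in KO inputs to 271, 272 and 247 in KO IPs (log2 −0.60 ± 0.08, adjusted p = 3.87e-06; 0.02 under ribosomal protein centring). SF3B6 passed narrowly (0.20 ± 0.09, adjusted p = 0.0488) and lost the call without any 1 of 11 of the 12 libraries. SNRPB2 (−0.54 ± 0.16) lost it without KO IP 2 (−0.33).

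Side by side, 16 members were enriched in both genotypes and 8 were depleted in both, against 19.0% and 19.1% of all genes and 20.9% and 21.8% of protein-coding genes. With ribosomal protein centring 22 members were enriched in both and 2 (SF3B2 and SF3B3) depleted in both. Under that centring 63.6% of all genes were enriched in control and 45.8% in KO cells, and 5.83% and 14.7% depleted. The share of all genes that passed in both was not counted there. SNRNP70 and SNRPD3 were enriched in control and depleted in KO cells, PRPF19 was enriched in control cells and did not pass in KO cells (0.03 ± 0.11), and EFTUD2 passed as enriched in KO cells but not in control cells. LSM8, PRPF8, SF3A1 and SNRNP40 passed as depleted in KO cells but not in control cells, and LSM6 passed as depleted in control cells but not in KO cells (−0.01 ± 0.15). PRPF3, PRPF6, SNRPC and U2AF1 passed in neither. Most of these patterns depended on the scaling. EFTUD2 passed in control cells too under ribosomal protein centring (1.52), as it also did under centring on the library median (0.43) and without control IP 3 (0.44) or KO input 3 (0.33). With ribosomal protein centring, PRPF19 was enriched in KO cells (0.65), LSM6, PRPF3, PRPF6 and SNRPC were enriched in both genotypes, and the KO calls of SF3A1 (−0.12), SNRNP40 (−0.03) and LSM8 (−0.09) were lost. SNRNP40 passed as enriched in control cells under ribosomal protein centring (1.37) and under centring on the library median (0.28). LSM4, PRPF8 and SNRNP200 were enriched in control and depleted in KO cells under ribosomal protein centring, and SNRNP70 and SNRPD3 no longer were. Whether the enrichments differed was tested directly, as given next.

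**Figure D1:**
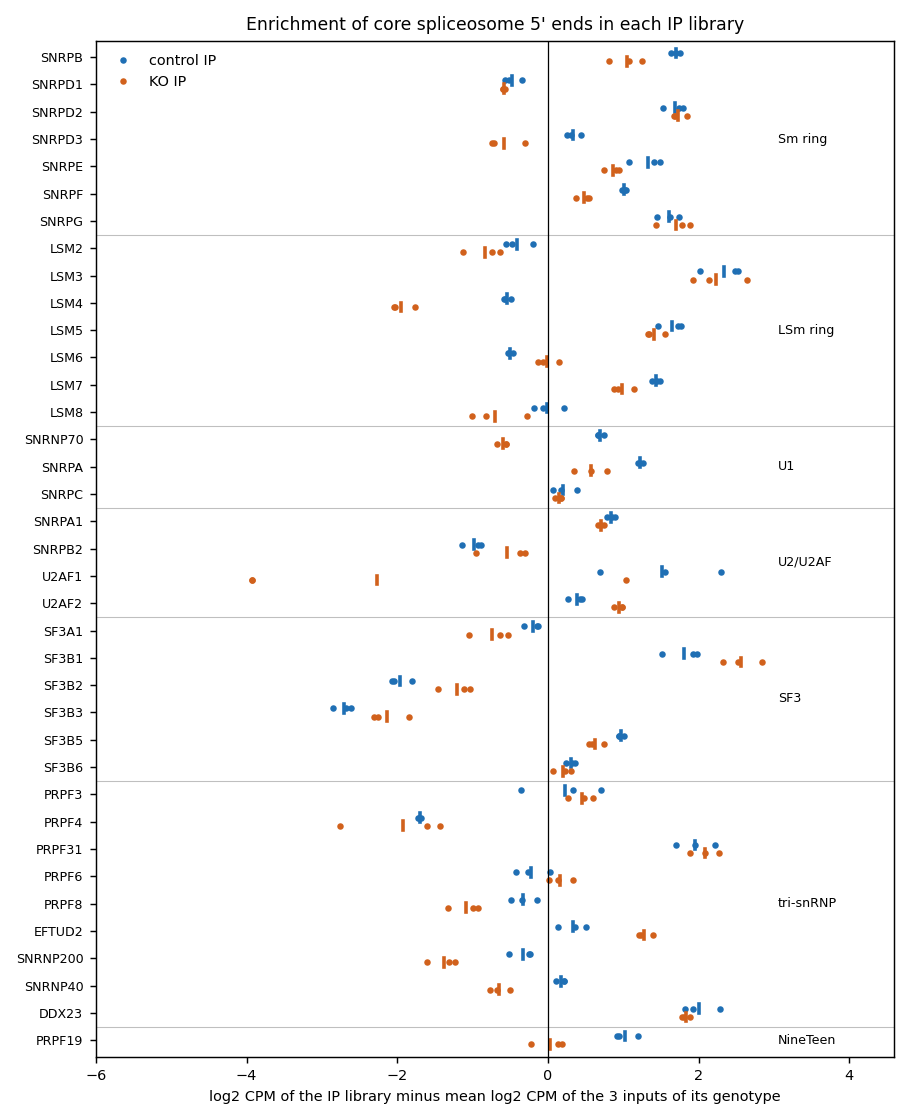
Log2 CPM of each IP library minus the mean log2 CPM of the 3 inputs of its genotype (x axis) for the 37 members (y axis, by role), with control IPs in blue, KO IPs in orange, 1 point per library and a bar at the mean of 3. Control and KO points lie apart for SNRNP70, LSM4 and SNRNP200 and overlap for SNRPD2 and SNRPG; U2AF1 rests on 0 to 8 reads per library.

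The difference in enrichment between genotypes (control minus KO, the interaction term of the fit) addresses which 5′ ends the antibody retained more when PCIF1 was present. Of the 37 members, 14 were more enriched in control cells and 4 in KO cells. The shares were 15.8% and 13.0% of all genes and 19.9% and 10.2% of protein-coding genes. The median difference was 0.23 over members, 0.06 over all genes and 0.18 over protein-coding genes. Enrichment values of control and KO IP libraries did not overlap for 24 members, and for 53.2% of all genes and 54.1% of protein-coding genes. Ribosomal protein centring moved the median of all genes by 0.57, gave 6023 genes (37.6%) more enriched in control against 785 (4.9%) in KO cells, and left 25 members in the first direction, U2AF1 with its few reads among them, and 0 in the second. Without the mean-variance trend, 9 members were more enriched in control cells.

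The largest differences among the well-covered members belonged to LSM4 and SNRNP70. LSM4 read 97.6, 90.1 and 94.9 CPM in control inputs, 63.0, 63.3 and 67.1 in control IPs, 140, 121 and 112 in KO inputs and 36.4, 30.3 and 30.4 in KO IPs. The IP was below the input in both genotypes, by more in KO cells (difference 1.40 ± 0.16, adjusted p = 2.27e-06), while KO inputs were also above control inputs. SNRNP70 differed by 1.29 ± 0.12 (adjusted p = 2.45e-07), with every control IP above and every KO IP below the inputs of its genotype. SNRNP200 read 128, 113 and 109 CPM in control inputs, 98.1, 98.5 and 81.6 in control IPs, 127, 128 and 109 in KO inputs and 39.8, 48.8 and 51.6 in KO IPs (difference 1.05 ± 0.17, adjusted p = 0.000105). Its inputs overlapped between genotypes and its IPs did not. PRPF19 read 294, 266 and 239 CPM in KO inputs and 302, 291 and 228 in KO IPs, where control IPs had been 2.03-fold above their inputs (difference 0.98 ± 0.16, adjusted p = 9.41e-05).

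Of the Sm ring, 4 of 7 members were more enriched in control cells and none in KO cells. SNRPD3 read 57.0, 55.3 and 48.5 CPM in control inputs, 65.8, 72.8 and 63.5 in control IPs, 58.3, 57.4 and 46.2 in KO inputs and 43.7, 32.2 and 32.7 in KO IPs (difference 0.91 ± 0.19, adjusted p = 0.00129). Its start lies 64 bases from that of GUCD1 on the opposite strand and 8 bases from that of a further gene in the same orientation, which makes its reads uncertain. SNRPB (0.65 ± 0.16), SNRPF (0.53 ± 0.13) and SNRPE (0.47 ± 0.15) also passed, with SNRPE lost when any 1 of 5 libraries was left out (control input 1, control IPs 2 and 3, KO input 2, KO IP 1; 0.39 to 0.44). A second gene spans the start of SNRPB in the same orientation, and its reads are uncertain too. SNRPD2 (−0.04 ± 0.15), SNRPG (−0.10 ± 0.16) and SNRPD1 (0.11 ± 0.13) did not pass, and the first 2 were positive under ribosomal protein centring (0.52 and 0.47). Thus, within 1 ring, SNRPB and SNRPD2 had almost the same control enrichment, 1.70 and 1.69. KO IPs of SNRPB fell to 537, 728 and 645 CPM, while those of SNRPD2 stayed within the range of its control IPs. The inputs of SNRPB were lower in KO cells too, at 288, 355 and 280 CPM against 536, 452 and 494. Its difference in enrichment (0.65) was therefore smaller than the fall of its IPs.

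In the LSm ring, LSM8 (0.69 ± 0.23, adjusted p = 0.0273) and LSM7 (0.46 ± 0.16, adjusted p = 0.0331) joined LSM4, and LSM2 (0.43 ± 0.22), LSM5 (0.25 ± 0.18), LSM3 (0.11 ± 1.17) and LSM6 (−0.49 ± 0.22; 0.08 under ribosomal protein centring) did not pass. LSM8 lost its call without control input 2 or 3, control IP 2 or KO IP 1, and LSM7 without any 1 of 8 libraries, at 0.54 to 0.69 and 0.39 to 0.47. The start of LSM7 lies 29 bases from that of SPPL2B on the opposite strand. SNRPA (0.65 ± 0.18, adjusted p = 0.0109) passed beside SNRNP70, while SNRPC (0.06 ± 0.23) did not. Tri-snRNP members more enriched in control cells were SNRNP200, SNRNP40 (0.83 ± 0.13, adjusted p = 7.63e-05) and PRPF8 (0.76 ± 0.20, adjusted p = 0.00885). The call of PRPF8 was lost without the mean-variance trend. SNRNP40 read 127, 133 and 132 CPM in control inputs and 153, 142 and 151 in control IPs, against 142, 142 and 145 in KO inputs and 84.0, 101 and 89.4 in KO IPs. PRPF8 read 98.4, 83.7 and 71.3 CPM in control inputs, 75.5, 65.7 and 59.7 in control IPs, 86.7, 102 and 74.8 in KO inputs and 45.7, 34.7 and 43.6 in KO IPs. SF3A1 passed too (0.54 ± 0.19, adjusted p = 0.0398), but lost its call without any 1 of 7 libraries (0.39 to 0.52).

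The opposite direction was found for EFTUD2, SF3B2, SF3B1 and U2AF2. EFTUD2, the U5 GTPase, read 21.0, 20.0 and 19.9 CPM in control inputs, 26.2, 28.9 and 22.2 in control IPs, 20.4, 23.1 and 16 in KO inputs and 51.6, 45.9 and 45.3 in KO IPs (difference −0.94 ± 0.22, adjusted p = 0.00304). SF3B1 differed by −0.76 ± 0.24 (adjusted p = 0.0243), a call that was lost without the mean-variance trend. It was also lost without control input 1 or 2, control IP 1 or KO IP 3 (−0.66 to −0.61). SF3B2 read 178, 198 and 150 CPM in KO inputs and 84.9, 80.9 and 63.6 in KO IPs, a smaller depletion than in control cells (difference −0.77 ± 0.17, adjusted p = 0.00235). U2AF2 read 382, 355 and 389 CPM in control inputs, 506, 452 and 511 in control IPs, 312, 346 and 340 in KO inputs and 661, 654 and 611 in KO IPs (difference −0.57 ± 0.12, adjusted p = 0.00142). KO IPs lay above control IPs in every library for these 4 genes. Under ribosomal protein centring none of the 4 passed (−0.37, −0.20, −0.19 and 0.00 for EFTUD2, SF3B2, SF3B1 and U2AF2), so that this direction is relative to the other genes of the libraries.

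**Figure D2:**
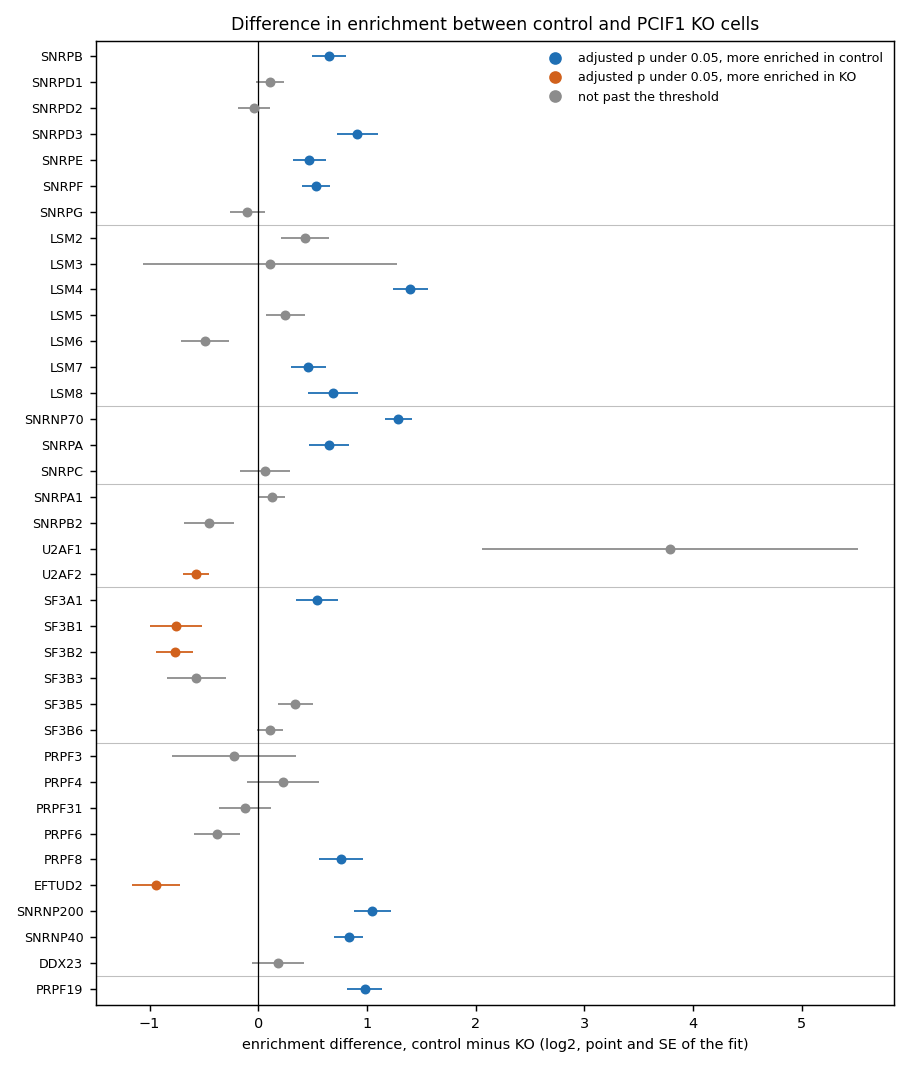
Enrichment difference, control minus KO (x axis, log2, point and SE of the fit), for the 37 members (y axis, by role); blue marks members more enriched in control cells, orange those more enriched in KO cells and grey those that did not pass. Blue points run from 0.46 (LSM7) to 1.40 (LSM4), the 4 orange points lie between −0.94 and −0.57, and the wide bars belong to LSM3 and U2AF1, which had few reads.

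**Figure D3:**
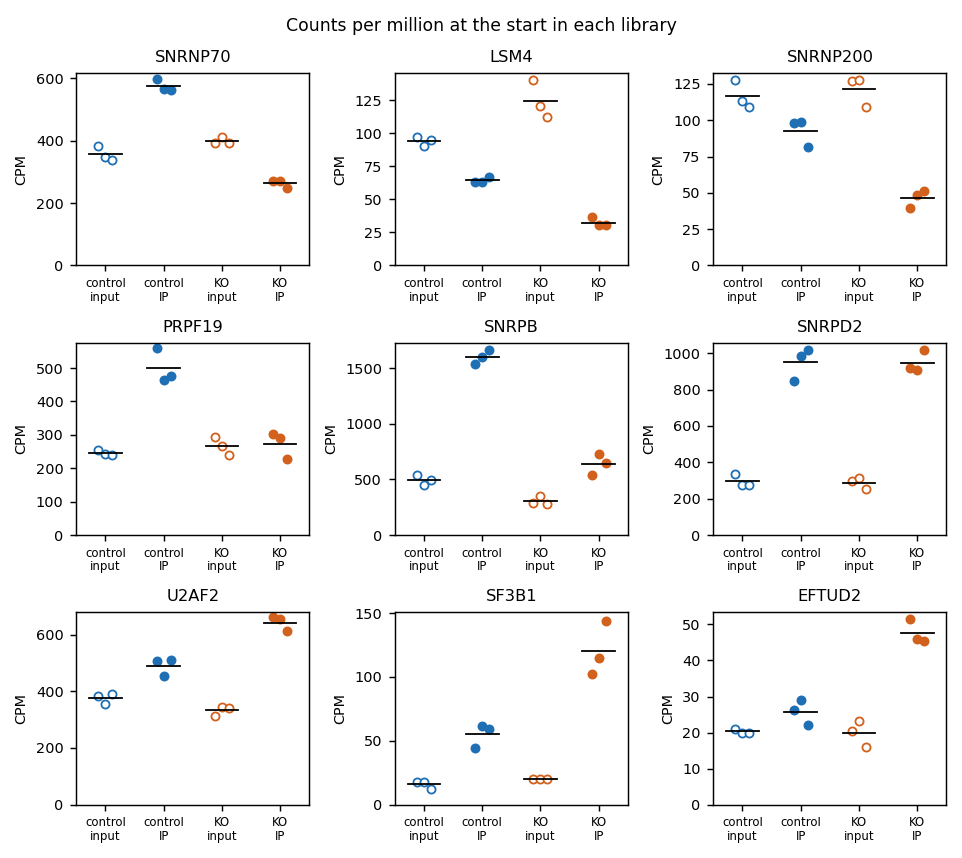
CPM on a linear axis from 0 (y) in each of the 12 libraries for 9 members, with open circles for inputs, filled circles for IPs and a bar at the mean of 3 libraries. KO IPs lie below control IPs for SNRNP70, LSM4, SNRNP200, PRPF19 and SNRPB, overlap them for SNRPD2, and lie above them for U2AF2, SF3B1 and EFTUD2.

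Input change, KO input minus control input, measures how abundant the 5′ end fragments were before the antibody. In bulk RNA, fewer cells of a type and less RNA per cell cannot be told apart. In this comparison 2 members rose, 2 fell and 33 did not pass, against 5.56% and 5.67% of all genes and 6.36% and 6.08% of protein-coding genes. The member median was −0.07. LSM4 rose by 0.40 ± 0.11 (adjusted p = 0.0235). SNRPD1 rose from 179, 187 and 158 to 224, 227 and 227 CPM (0.38 ± 0.09, adjusted p = 0.0094). SNRPB fell from 536, 452 and 494 to 288, 355 and 280 CPM (−0.69 ± 0.11, adjusted p = 0.000361), and PRPF31 from 20.0, 17.5 and 26.9 to 13.3, 13.9 and 13.1 CPM (−0.66 ± 0.17, adjusted p = 0.013). Genotypes did not overlap for any of these 4, but the calls rest on the same values, so this is no separate support. Inputs of the genotypes did not overlap for 14 of the 37 members, 31.7% of all genes and 34.0% of protein-coding genes. The start of PRPF31 lies 97 bases from that of TFPT on the opposite strand. Without control input 3, the calls of LSM4, SNRPD1 and PRPF31 were lost (0.40, 0.31 and −0.48), leaving 0 members that rose and 1 that fell. LSM4 also lost its call without control input 1 or 2 or KO input 1 or 2 (0.31 to 0.42).

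IP change, KO IP minus control IP, compares what the antibody retained in both genotypes without the inputs. Here 6 members rose and 19 fell, against 23.0% and 26.0% of all genes and 19.1% and 31.9% of protein-coding genes. The member median was −0.53, compared with −0.04 over all genes and −0.16 over protein-coding genes. IP libraries of the genotypes did not overlap for 25 members, and for 54.6% of all genes and 56.2% of protein-coding genes. SNRPB fell furthest among members past the threshold (−1.34 ± 0.11, adjusted p = 1.19e-08), followed by SNRNP70 (−1.13 ± 0.08), LSM4 (−1.0 ± 0.11), SNRNP200 (−0.99 ± 0.12) and SNRPD3 (−0.91 ± 0.14). For SNRPB, the input had fallen by 0.69 as well, so that its difference in enrichment was smaller than its IP change. The members that rose were SF3B1 (1.13 ± 0.17, adjusted p = 2.09e-05), EFTUD2 (0.89 ± 0.16), SF3B2 (0.57 ± 0.12), SNRPB2 (0.46 ± 0.16), U2AF2 (0.39 ± 0.09) and SNRPD1 (0.27 ± 0.09). Under ribosomal protein centring, which moved the median of all genes by −0.52 and gave 1575 genes (9.84%) up against 7544 (47.1%) down, 2 members rose in place of 6, and SNRPB2 (−0.06), U2AF2 (−0.13) and SNRPD1 (−0.25) turned negative. SNRPB2 lost its call without control IP 1, KO IP 1 or KO IP 3 (0.34 to 0.38), and SNRPD1 without control IP 1 or 3 (0.23 and 0.25). Among the members that fell, LSM5 lost the call without control IP 2 or 3, LSM8 without control IP 2 or KO IP 1, PRPF31 without control IP 1 or KO IP 3, and SNRPA1 without control IP 3.

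The rule set the small ring proteins against the large factors. The ring class holds the 14 Sm and LSm proteins, of 76 to 231 codons, and the large class the 10 members of at least 600 codons: PRPF8 (2335 codons), SNRNP200 (2136), SF3B1 (1304), SF3B3 (1217), EFTUD2 (972), PRPF6 (941), SF3B2 (895), DDX23 (820), SF3A1 (793) and PRPF3 (683). Median control enrichment was 1.17 for ring and −0.21 for large factors, a gap of 1.38. By library the gap was 1.17, 1.52 and 1.49 in control IPs and 0.88, 0.88 and 1.06 in KO IPs, with means of 1.39 ± 0.19 and 0.94 ± 0.10 (SD, n = 3 libraries). The gap was thus larger in each control IP than in each KO IP. The 3 values of a genotype share the mean of its 3 inputs, so the SD holds the spread of the IPs and not that of the inputs. By class means it was 0.94 in control and 0.44 in KO enrichment, and against all members outside the rings 0.86 and 0.53. Members are not replicates of their class, and the gap was not tested.

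The classes overlapped over most of their range. Control enrichment ran from −0.55 to 2.34 in ring proteins and from −2.71 to 2.01 in large factors, where SF3B1 and DDX23 stood with the most enriched ring proteins. Of the ring proteins, 9 were enriched and 4 depleted in control cells, and of the large factors 2 and 3. In the difference between genotypes, the ring median was 0.44 and the large median −0.30, beside 0.06 over all genes and 0.18 over protein-coding genes. Of the ring proteins, 13 of 14 lay above the large median. That median was itself below the median of all genes, and the share of all genes above it was not counted. Ring proteins were more enriched in control cells in 7 cases and in KO cells in none, while the large factors were split, 3 (SNRNP200, PRPF8 and SF3A1) against 3 (EFTUD2, SF3B1 and SF3B2). Input change differed little, with medians of −0.20 and −0.04, and IP change had medians of −0.69 and 0.12. The gap in the difference was 0.74 by medians, 0.49 by class means and 0.31 against all members outside the rings. After ribosomal protein centring all 14 ring proteins and 8 of the large factors were enriched in control cells, with 0 and 2 depleted. Of all genes, 63.6% were then enriched and 5.83% depleted. In the difference, 12 ring proteins and 4 large factors then went toward control and none toward KO, so that the split of the large factors did not hold. The shares of all genes were 37.6% toward control and 4.9% toward KO.

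Coding length was also read across the table. Among protein-coding genes, the 2141 with 76 to 231 codons had a median control enrichment of 0.06 and the 4183 with at least 600 codons 0.01, with 35.9% and 29.4% enriched. Their medians in the difference between genotypes were 0.21 and 0.11, and 26.0% of the small and 15.3% of the large were more enriched in control cells. Spearman's rho between coding length and control enrichment was −0.22 over the 37 members and −0.01 over 12047 protein-coding genes. These correlations are across genes of the same libraries and are given as a description.

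**Figure D4:**
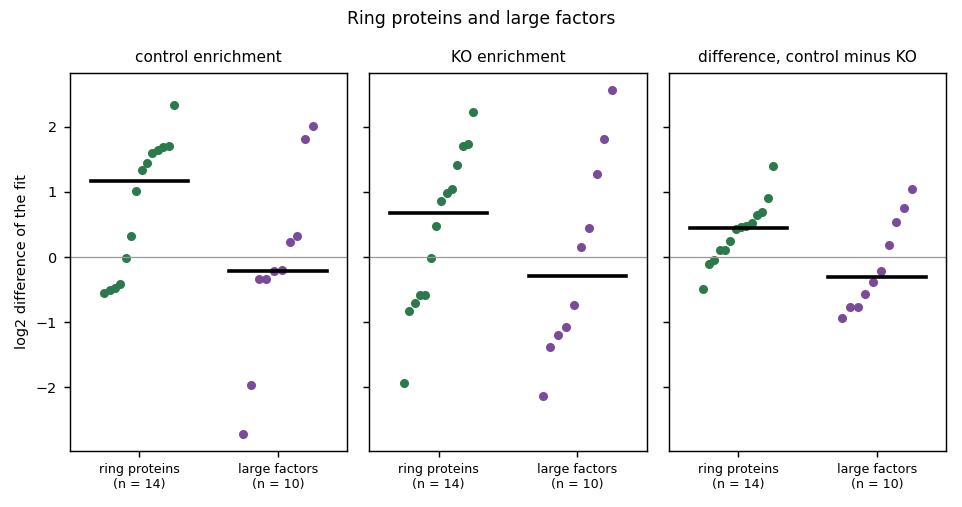
Log2 values of the fit (y axis, shared) for the 14 ring proteins (green) and 10 large factors (purple) in control enrichment, KO enrichment and their difference; each point is a gene, ordered by value, and the bar is the class median. Ring medians are 1.17, 0.67 and 0.44 and large medians −0.21, −0.29 and −0.30, while the points of the classes overlap in every panel.

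By annotated first base, 12 of the 37 members start with A (32.4%), 15 with G and 10 with C, while 46.1% of protein-coding genes start with A, 42.0% with G and 11.3% with C. In 10 of the 12 A starts the base before is C, as it is in 4168 of the 5549 A starts of protein-coding genes. The A-start members are SNRPD3, LSM4, LSM5, SNRNP70, U2AF2, SF3B1, SF3B5, PRPF3, PRPF8, SNRNP200, DDX23 and PRPF19. In the difference between genotypes, 6 of these 12 were more enriched in control cells and 2 in KO cells, with a median of 0.55. Of the 25 other members, 8 and 2 passed, with a median of 0.11. Over protein-coding genes, 27.6% of A starts, 13.8% of G starts and 12.1% of C starts were more enriched in control cells, with medians of 0.37, 0.06 and −0.10. The 10 C-start members had a median of 0.27, with 4 more enriched in control cells (SNRPE, SNRPF, LSM8 and SNRPA), and the 15 G-start members a median of 0.11.

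The first base did not sort the members one by one. The A starts include the largest differences toward control (LSM4, SNRNP70, SNRNP200 and PRPF19) as well as SF3B1 and U2AF2, which were more enriched in KO cells, and LSM5 (0.25 ± 0.18), SF3B5 (0.34 ± 0.16), DDX23 (0.18 ± 0.24) and PRPF3 (−0.22 ± 0.57), which did not pass. SNRNP40, SNRPB and LSM7, with G, were more enriched in control cells. By the 5′ end of the gene record, however, SNRPB and LSM7 begin with A, and by RefSeq so does SNRPE, a C start above. In control enrichment the A starts had a median of 0.54, with 8 enriched and 2 depleted, and the other members 0.31. Of the 5549 A starts of protein-coding genes, 2273 (41.0%) were enriched and 981 depleted, with a median of 0.32. Their G and C starts had 24.5% and 18.3% enriched, with medians of −0.17 and −0.51. The gap of 0.23 between A-start and other members became 0.92 with the 5′ end of the gene record and 0.64 with RefSeq starts. Their gap of 0.44 in the difference between genotypes became 0.29 and 0.28. The RefSeq values cover only the 33 members found there, without SNRPD1, LSM6, SF3B3 and PRPF3, so that the set of genes changed as well as the base. Of the 4 C starts with a pyrimidine run, SNRPD2 and SNRPA were enriched in control cells (1.69 and 1.22), LSM2 was depleted (−0.41) and LSM8 did not pass (−0.01). The base depends on the annotation. The 5′ end of the gene record equals the canonical start in 14 of 37 members, with the same base in 22, and 29 of the 33 members found among RefSeq promoters have the same start. The region in which the authors counted reads is not given in the sources used here, so that a start used in these cells may differ from the printed one. In 15 of the 37 members the start lies inside another gene or within 200 bases of another gene's start, and reads of the partners cannot be told apart without the counting strand.

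Other genes of splicing were counted from lists of related factors. Among 34 measured genes of activation and catalysis (of 36 listed), 16 were enriched and 8 depleted in control cells, and 11 were more enriched in control cells and 3 in KO cells, with a median difference of 0.33. The shares of all genes were 27.7% and 28.2% in control enrichment and 15.8% and 13.0% in the difference. Under ribosomal protein centring 32 were enriched and 1 depleted in control cells, against 63.6% and 5.83% of all genes, and 24 went toward control and 1 toward KO, against 37.6% and 4.9%. BUD31, a factor of the activated spliceosome, went toward KO, at 152 ± 3.02 CPM in control inputs, 101 ± 2.12 in control IPs, 121 ± 15.6 in KO inputs and 161 ± 12.8 in KO IPs (SD, n = 3 each; difference −1.0 ± 0.14, adjusted p = 3.58e-05; −0.43 under ribosomal protein centring). TXNL4A, a small U5 protein, was depleted in both genotypes, less so in control cells (0.70 ± 0.12, adjusted p = 0.00018), although its control value turned positive under ribosomal protein centring (0.25), and its input rose in KO cells (0.63 ± 0.08). AQR, a helicase that binds the intron, was enriched 2.63-fold in control and 1.42-fold in KO cells (0.89 ± 0.17, adjusted p = 0.00046).

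Of 14 measured genes that assemble Sm rings (of 16 listed), 2 were enriched and 5 depleted in control cells, beside 27.7% and 28.2% of all genes. Under ribosomal protein centring 9 of the 14 were enriched and none depleted, beside 63.6% and 5.83% of all genes. In the difference between genotypes 4 were more enriched in control cells and 1 in KO cells, beside 15.8% and 13.0% of all genes. WDR77 and PRMT5, which form the methylosome that modifies Sm tails, were more enriched in control cells (1.14 ± 0.21, adjusted p = 0.00041, and 0.66 ± 0.16, adjusted p = 0.00453), and GEMIN6, of the SMN complex, in KO cells (−1.27 ± 0.37, adjusted p = 0.0145; −0.70 and adjusted p = 0.134 under ribosomal protein centring). All 8 listed paralogs of ring proteins were measured, with 5 enriched and 3 depleted in control cells (5 and 0 under ribosomal protein centring), beside the same shares of all genes as for the assembly genes. LSM10, which replaces a Sm protein in the U7 ring, gained 0.31 ± 0.11 in control cells and fell by 0.87 ± 0.11 on the log2 scale in KO cells (difference 1.18 ± 0.15, adjusted p = 1.01e-05). Its KO depletion was lost under ribosomal protein centring (−0.25, adjusted p = 0.0877). LSM1, which takes the place of LSM8 in the cytoplasmic ring of mRNA decay, differed by 1.21 ± 0.22 (adjusted p = 0.000407), next to 0.69 ± 0.23 for LSM8. SNRPN, the paralog of SNRPB, differed by 0.50 ± 0.14 (adjusted p = 0.00868). SNRPN rose in KO inputs (0.79 ± 0.10, adjusted p = 1.41e-05) where SNRPB fell (−0.69 ± 0.11). SNRPN shares its start with SNURF and LSM1 lies 40 bases from the start of BAG4, so that the reads of both are uncertain. The start of WDR77 lies inside ATP5PB, on the opposite strand, and its reads are uncertain too.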

How the data were processed

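The authors deposited 1 table of log2 CPM per start region, gene and library. The build was hg38, and the tools listed are edgeR 3.12.1, R 3.3.3, featureCounts, deepTools 3.0.2, SAMtools 1.7 and HISAT2 2.0.4, per the submitters' processing notes, which give no roles. The counting window, the strand setting and any gene filter were not given in the sources used here. Depth was recovered from the deposited log2 values: subtracting an added count of 0.25 gave whole numbers, within 0.01, for every value. Library pairs within a group differed by more than sampling noise. Columns are numbered and labels are lettered, so columns were assigned to groups only. The labels name no molecular identifiers, so reads may not be independent molecules. Log2 differences of genes with few reads are shrunk by the added count.

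The 4 group means over 12 libraries were fitted by limma 3.58.1 (R 4.3.3) with a mean-variance trend, and 5 contrasts were tested with Benjamini-Hochberg adjustment over 16009 genes, called at 0.05. A filter of log2 0 in at least 3 libraries removed no gene. Errors of log2 values are standard errors of the fit; the fit was checked on simulated data. Names, coordinates, codons and first bases came from GENCODE 44, matched by identifier for 15903 genes. Alternatives were other scalings, weights, added counts, filters, a block and each library left out. All members could be named, and up to 3 genes of each other list with the smallest adjusted p in the difference. The members and lists were chosen with earlier results of these data known.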

Additional observations from a re-analysis of the deposited data

Results flagged for a closer look

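Enrichment differed between control and KO cells, by the interaction test of limma with Benjamini-Hochberg adjustment over all genes, for 18 of the 37 members. In the same test 15.8% of all genes passed toward control and 13.0% toward KO. Of protein-coding genes, 19.9% and 10.2% passed. Toward control, LSM4 differed by 1.40 on the log2 scale, SNRNP70 by 1.29, SNRNP200 by 1.05, PRPF19 by 0.98, SNRPD3 by 0.91, SNRNP40 by 0.83 and PRPF8 by 0.76. Smaller differences in that direction were found for LSM8 (0.69), SNRPB (0.65), SNRPA (0.65), SF3A1 (0.54), SNRPF (0.53), SNRPE (0.47) and LSM7 (0.46). Toward KO, EFTUD2 differed by −0.94, SF3B2 by −0.77, SF3B1 by −0.76 and U2AF2 by −0.57. In all 18 cases the 3 control and 3 KO enrichment values did not overlap. The calls rest on the same values, so this is no separate support. Such non-overlap was found for 24 of the 37 members, 53.2% of all genes and 54.1% of protein-coding genes.

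A group of 3 libraries is too small for a test of single outlying libraries, and none was made.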

How the results depend on the processing

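Centring on ribosomal protein mRNAs moved the most values. Control enrichment then counted 32 members up and 2 down, KO enrichment 6 down, the difference 25 toward control and 0 toward KO, and IP change 2 up. Signs turned in control enrichment for LSM2 (0.78), LSM4 (0.64), LSM6 (0.68), LSM8 (1.17), PRPF6 (0.96), PRPF8 (0.86), SF3A1 (0.99), SNRNP200 (0.85), SNRPB2 (0.20) and SNRPD1 (0.71). They turned in KO enrichment for LSM6 (0.60), SNRNP70 (0.02), SNRPB2 (0.08), SNRPD1 (0.03) and SNRPD3 (0.03), and in the difference for SNRPD2 (0.52) and SNRPG (0.47). In IP change they turned for SF3B3 (−0.43), SNRPB2 (−0.06), SNRPD1 (−0.25), SNRPD2 (−0.52) and U2AF2 (−0.13). The cause was not tested. Centring on the library median moved the median of all genes by at most 0.10. In control enrichment, LSM2 (−0.31) and SNRNP200 (−0.24) then lost their calls as depleted, and EFTUD2 (0.43) and SNRNP40 (0.28) passed as enriched. Without the trend, 9 members differed toward control and input change counted 1 up and 1 down. The calls of PRPF8, LSM8, SF3A1, SNRPE and LSM7 toward control and of SF3B1 toward KO were then lost. In control enrichment, those of LSM2, SNRNP200 and SNRPD3 were lost without the trend. With each library left out in turn, input change counted 0 to 2 up and 1 to 3 down. The ring gap was 0.94 in control enrichment, 0.44 in KO enrichment and 0.49 in the difference by class means, and 0.86, 0.53 and 0.31 against all other members. A minus other starts was 0.23 in control enrichment, 0.08 in KO enrichment and 0.44 in the difference. It was 0.92 and 0.66 in the first 2 by the gene record. By RefSeq starts, over the 33 members that have one, it was 0.64, 0.45 and 0.28. Control enrichment of PRPF8 (−0.33) passed under 8 of the alternatives, the block and an added count of 2 among them.

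Deviations of same-numbered libraries correlated weakly, at −0.075 to 0.244. Even so, each library correlated best with its own number in 30 of 36 cases, with 3 candidates in each other group. The column numbers thus held some pairing of libraries, which the main fit did not model. With the replicate block, control enrichment counted 19 up and 10 down, KO enrichment 17 and 14, the difference 14 toward control and 4 toward KO, input change 2 and 3, and IP change 6 and 19. Depth limits LSM3, U2AF1 and PRPF3, with 0, 0 and 7 reads in their lowest library.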
